A study of Homo sapiens with 15 samples.

Results

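The genes described here are the ATM and ATR checkpoint genes, a set of 10 (ATM, ATR, ATRIP, CHEK1, CHEK2, RAD17, RAD9A, HUS1, TOPBP1, and CLSPN) among the 19483 genes that the array names. They were taken by name, with earlier results of these data known, by a rule that uses no measured value. Every probe whose RefSeq accession belongs to 1 of them was taken, which gave 14 probes of 34127. ATM, ATR, ATRIP, and CHEK2 have 2 probes each and the other 6 genes have 1. All 14 were well above background in all 15 tumors and so passed the filter on dim probes, as did 30585 of all probes.

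ATM and ATR are large protein kinases of the same family that respond to damaged DNA. In textbook accounts ATM is recruited to double-strand breaks by the MRE11, RAD50, and NBN complex and phosphorylates CHEK2, whereas ATR is brought by ATRIP to single-stranded DNA coated with RPA and phosphorylates CHEK1. RAD17 loads the ring-shaped clamp of RAD9A, HUS1, and RAD1 beside that DNA, the clamp and TOPBP1 stimulate ATR, CLSPN carries CHEK1 to it, and the activated kinases slow the cell cycle while DNA is repaired. This control acts mostly on the proteins, whereas the arrays measured RNA.

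The RNA came from xenograft tumors of HCT116, a human colon cancer cell line, grown in athymic nude mice, which lack T cells but keep other host cells. Cells were transfected with an empty vector, with wild type Myc-tagged MOAP-1, with MOAP-1 in which a lysine was changed to arginine (K264R or K278R), or with RASSF1A, a tumor suppressor that binds MOAP-1. The transfections were transient and gave pools of cells and not clones, and each of the 5 constructs is represented by 3 independent tumors, 1 per array. The paper reports that expression in culture was sustained for days after transfection, whereas the tumors were excised weeks later. The vector tumors are the control. The question of the MOAP-1 and vector comparison is which genes differ with MOAP-1, and the study's own selection from these same tumors included ATM and ATRIP, so the values of those genes are not independent evidence. All levels below are log2 processed signal minus the 75th percentile of the array, so a level is a position within its array, and a difference between constructs is the log2 of their ratio. Levels of different probes are not comparable with each other. A probe was called when it passed an adjusted p of 0.05 and differed by at least 1.5-fold, which is 0.585 on the log2 scale. The words rose and fell are kept for called probes.

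Arrays of a construct correlated at 0.9871 to 0.9940 over all kept probes, between 85.1 and 93.1% of spots were well above background, and no spot was saturated. The arrays lay on 5 slides. K264R had a slide of its own, the 3 vector tumors shared a slide with RASSF1A tumor 3, and the 3 K278R tumors shared a slide with MOAP-1 tumor 2. Slide and construct cannot be told apart in the other comparisons. Array brightness also differed between constructs. The 75th percentile signal was 631 to 767.6 units in vector, 799.6 to 1022 in MOAP-1, and 1176 to 1402 in K264R. It was 496.3 to 1152 in K278R and 612.7 to 817.8 in RASSF1A. The part of this brightness in the differences between constructs was not tested. The MOAP1 probe checked the labels first. Its level was -0.18, -0.53, and -0.13 in vector tumors 1 to 3 and 0.34, 0.71, and 0.71 in MOAP-1 tumors 1 to 3, without overlap, a rise of 0.86 (standard error 0.14, adjusted p = 0.000842). It lay between 0.11 and 0.53 in the K264R and K278R tumors and between -0.52 and -0.23 in the RASSF1A tumors. The RASSF1 probe did not mark the RASSF1A tumors, where it lay between 1.55 and 1.59 against 1.52 to 1.81 in vector (change of -0.12, adjusted p = 0.671), so those tumors are named by their label alone.

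The epithelial markers EPCAM, CDH1, KRT8, KRT18, and KRT19 were all above background in every tumor, and their summed level was 8.06 to 8.26 in vector, in MOAP-1 7.78 to 7.98, and in the other constructs 7.49 to 8.04. Against vector, 1 of 2 KRT8 probes was higher in MOAP-1 (1.07, adjusted p = 0.0122), whereas EPCAM was lower at less than 1.5-fold (-0.42, adjusted p = 0.0336). The median change of the 7 epithelial probes was -0.11. Of 7 fibroblast markers, LUM was above background in no tumor, and the summed level of the list spread widely within constructs, from 1.16 to 4.38 in vector, 2.69 to 5.56 in MOAP-1, 2.31 to 4.36 in K264R, 3.76 to 5.48 in K278R, and 3.12 to 3.69 in RASSF1A. Probes of COL1A1 (2.24, adjusted p = 0.0406) and DCN (4.46, adjusted p = 0.011, above background in 13 of 15 tumors) rose in MOAP-1 against vector, and PDGFRB rose in K278R (1.34, adjusted p = 0.0425). Of 4 probes of the leukocyte marker PTPRC, A_33_P3309526 rose in MOAP-1 (0.72, adjusted p = 0.00857) and in K278R (0.69, adjusted p = 0.0176). In contrast, A_33_P3364808 differed by -0.38 in MOAP-1 (adjusted p = 0.00589) and -0.32 in K278R (adjusted p = 0.0213). Of the other leukocyte markers, CD14 (-0.42, adjusted p = 0.0309) and CSF1R (-0.36, adjusted p = 0.0361) were lower in MOAP-1 than in vector at less than 1.5-fold. The median change of the 8 leukocyte probes was 0.07. The summed endothelial markers lay between 1.07 and 1.88 over all tumors, with 2 of 3 PECAM1 probes not kept, the leukocyte markers between 2.95 and 2.98 in vector, 3.01 and 3.42 in MOAP-1, and 2.89 and 3.65 in the other constructs, and the erythroid markers between 0.74 and 1.38. The host cells are mouse cells and the probes were named through human RefSeq accessions. How far mouse RNA reaches these probes was not tested, nor was the part of other cells in the results below. In bulk tumor RNA fewer cells that express a gene and less RNA per cell cannot be told apart.

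Promoters are shown for the 6 genes called between MOAP-1 and vector, of which 5 rose and 1 fell. The sequences are RefSeq's, of build GRCh38.p14, 250 bases up to the base before the start site, read along the strand of the gene. A promoter entry was found for 9 of the 10 genes, and where a gene had several the entry nearest its annotated start is given. For CHEK1 that entry starts 1088 bases from the annotated start, for RAD17 525, and for CHEK2 14. For ATM, RAD9A, and ATRIP the starts are the same. Capitals mark CCAAT on either strand (ATTGG where it lies on the other), the box bound by the factor NF-Y.
ATM (chr11:108222817-108223066, plus strand): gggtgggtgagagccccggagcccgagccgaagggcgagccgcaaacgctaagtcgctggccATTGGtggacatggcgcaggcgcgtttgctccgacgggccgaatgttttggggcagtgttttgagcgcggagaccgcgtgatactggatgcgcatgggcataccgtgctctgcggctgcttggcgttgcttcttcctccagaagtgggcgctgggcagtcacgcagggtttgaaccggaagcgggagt
CHEK1 (chr11:125625974-125626223, plus strand): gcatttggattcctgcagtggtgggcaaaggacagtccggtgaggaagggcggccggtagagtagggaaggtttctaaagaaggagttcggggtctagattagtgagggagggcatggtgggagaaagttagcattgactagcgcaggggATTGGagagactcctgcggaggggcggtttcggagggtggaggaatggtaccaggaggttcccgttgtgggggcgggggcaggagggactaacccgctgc
CHEK2 (chr22:28741821-28742070, minus strand): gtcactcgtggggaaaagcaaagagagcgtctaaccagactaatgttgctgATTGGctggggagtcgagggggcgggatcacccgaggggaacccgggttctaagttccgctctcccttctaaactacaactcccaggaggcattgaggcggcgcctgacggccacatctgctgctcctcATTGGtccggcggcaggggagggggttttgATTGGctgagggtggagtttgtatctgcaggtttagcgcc
RAD17 (chr5:69369568-69369817, plus strand): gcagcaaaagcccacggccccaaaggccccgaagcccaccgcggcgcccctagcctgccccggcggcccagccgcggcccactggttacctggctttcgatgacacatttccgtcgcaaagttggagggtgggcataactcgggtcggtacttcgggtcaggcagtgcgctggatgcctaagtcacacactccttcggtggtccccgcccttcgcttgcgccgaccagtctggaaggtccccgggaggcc
RAD9A (chr11:67391736-67391985, plus strand): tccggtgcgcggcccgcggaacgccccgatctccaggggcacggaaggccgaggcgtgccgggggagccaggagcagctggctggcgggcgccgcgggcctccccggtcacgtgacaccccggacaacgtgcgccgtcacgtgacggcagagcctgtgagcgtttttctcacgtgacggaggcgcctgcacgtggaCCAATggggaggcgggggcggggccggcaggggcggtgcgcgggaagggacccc
ATRIP (chr3:48446487-48446736, plus strand): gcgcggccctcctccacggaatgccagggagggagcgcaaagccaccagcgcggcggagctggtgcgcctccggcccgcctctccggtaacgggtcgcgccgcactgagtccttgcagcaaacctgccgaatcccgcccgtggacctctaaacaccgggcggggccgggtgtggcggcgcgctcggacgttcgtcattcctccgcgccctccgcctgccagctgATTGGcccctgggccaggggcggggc
CHEK2 held 3 matches, ATM, CHEK1, RAD9A, and ATRIP 1 each, and RAD17 none. Of the 9 genes with an entry 6 held the box, CLSPN among them with 3, whereas 32.0% of all 35116 promoters held it in the same window. The E2F sites TTTCGCGC and TTTGGCGC, searched on both strands, were in none of the 9 and in 0.439 and 0.55% of all promoters. A match is a description of letters and not of a bound site.

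MOAP-1 tumors differed from vector tumors at 6 of the 14 checkpoint probes. The probes of ATM (A_23_P35916), CHEK1, CHEK2 (A_23_P109452), RAD17, and RAD9A rose, by 0.59 to 1.15 on the log2 scale, and a probe of ATRIP (A_24_P371425) fell (-1.10). Over all probes 16.6% were called in this comparison, 9.92% higher and 6.69% lower in MOAP-1. At any fold 9 checkpoint probes passed the adjusted p, 7 higher and 2 lower, against 30.5% of all probes. The median change of the 14 was 0.40, and that of all probes 0.02. The groups did not overlap at 12 of the 14, against 48.5% of all probes.

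**Figure D1:**
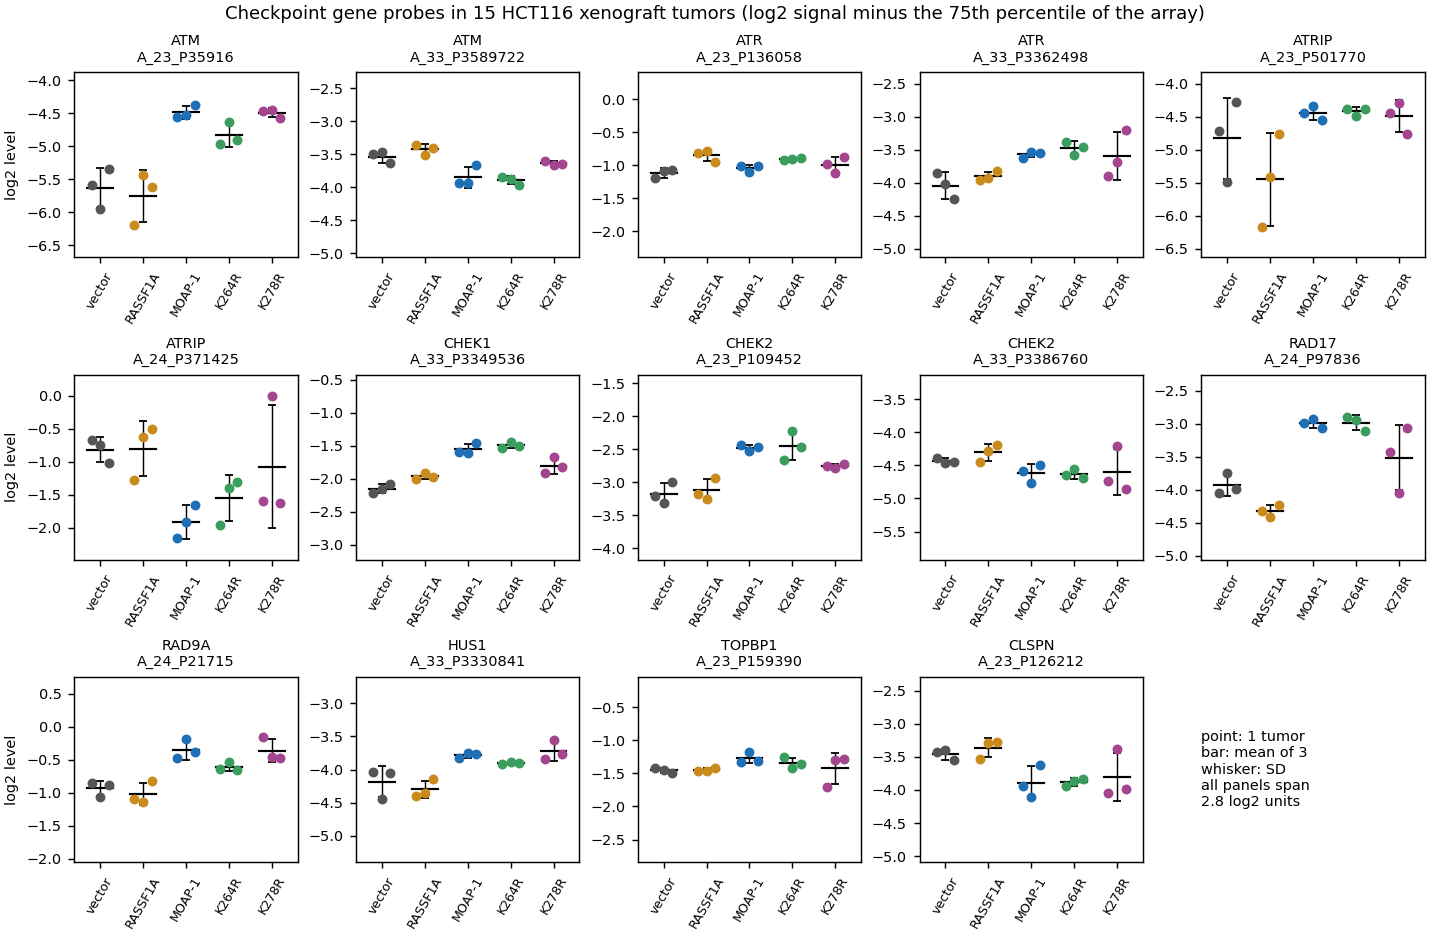
Log2 level (vertical axis, log2 signal minus the 75th percentile of the array) of each of the 14 probes in every tumor, by construct (horizontal axis). Points are tumors, bars are means of 3 tumors, and whiskers are SDs. The MOAP-1 points of ATM A_23_P35916 (-4.55 to -4.37) sit above all vector points (-5.95 to -5.35), and K278R tumor 2 stands apart at the ATRIP probe A_24_P371425 (0.00).

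The kinases come first. ATM, which starts the response to double-strand breaks, has a probe printed as 10 spots on each array, of which 7 to 10 were used (A_23_P35916). Its level was -5.59, -5.95, and -5.35 in vector tumors 1 to 3 and -4.55, -4.53, and -4.37 in MOAP-1 tumors 1 to 3. Every MOAP-1 tumor lay above every vector tumor, and the rise was 1.15 (2.22-fold, standard error 0.18, adjusted p = 0.000746). The spots give its error within an array: their SD was 0.12 to 0.32 in the vector tumors, 0.08 to 0.11 in the MOAP-1 tumors, and at most 0.16 in all others. The highest single spot of the vector tumors, at -5.01, lay below the lowest of the MOAP-1 tumors, at -4.76. The signal was dim, at percentile 13.3 of brightness among the kept probes. The lowest level well above background was -6.06, -6.65, and -6.98 on the arrays of vector tumors 1 to 3, so the vector values lay near that floor.

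The other ATM probe (A_33_P3589722, 1 spot) went the opposite way. It lay at -3.50, -3.47, and -3.64 in vector and at -3.94, -3.94, and -3.67 in MOAP-1. These groups also did not overlap, and the change of -0.32 (standard error 0.10) passed the adjusted p (0.0246) at less than 1.5-fold. Both probes carry the same RefSeq accession, and the files do not give the part of the transcript that each one binds.

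**Figure D2:**
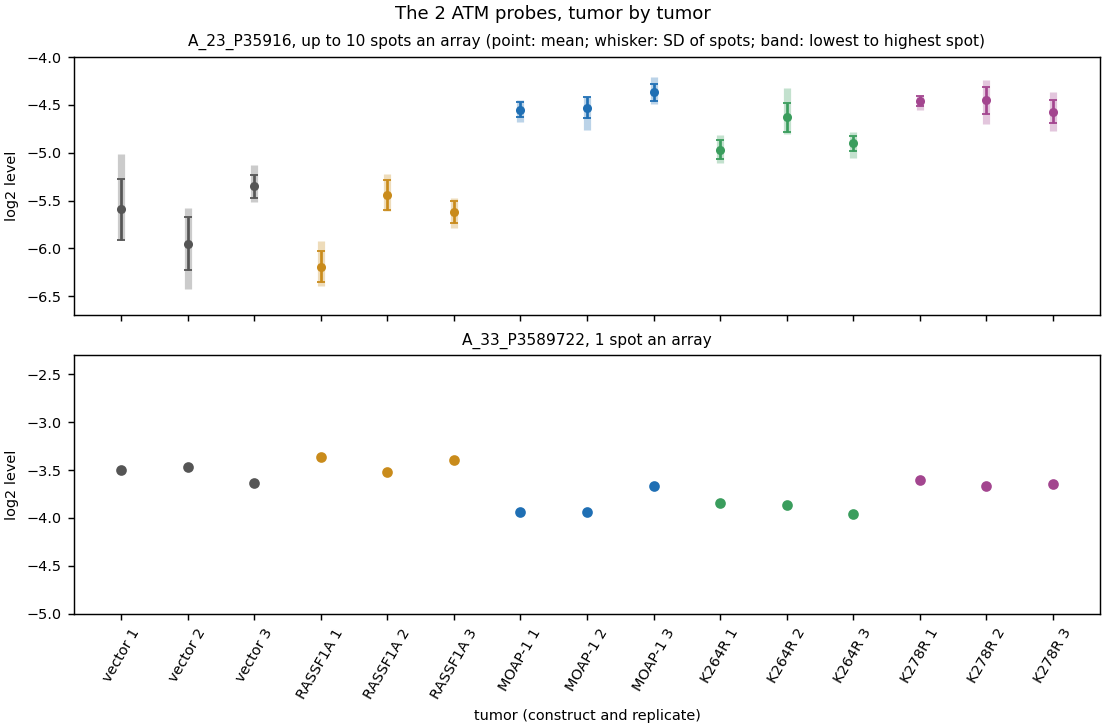
Log2 levels of the 2 ATM probes in each tumor (horizontal axis, construct and replicate). In the upper panel points are means over the spots of an array, whiskers are SDs between spots, and bands run from the lowest to the highest spot; the lower panel shows the single spot of the other probe. The upper values rise from -5.63 in vector to -4.48 in MOAP-1 as means of 3 tumors, and the lower ones pass from -3.54 to -3.85.

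ATR, the kinase of stalled replication forks, was not called at either probe. A_23_P136058 lay between -1.20 and -1.07 in vector and between -1.10 and -1.01 in MOAP-1, with overlap (change of 0.08, interval -0.11 to 0.27, adjusted p = 0.522). A_33_P3362498 was at -3.85, -4.02, and -4.25 in vector and at -3.62, -3.53, and -3.54 in MOAP-1. That difference of 0.47 (standard error 0.15, adjusted p = 0.0334) passed the adjusted p at 1.39-fold.

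ATRIP, the partner that brings ATR to single-stranded DNA, fell at its probe A_24_P371425. Vector tumors 1 to 3 had levels of -0.67, -0.75, and -1.02 and MOAP-1 tumors 1 to 3 had -2.16, -1.91, and -1.65. The groups did not overlap and the level was 2.14-fold lower (-1.10, standard error 0.36, adjusted p = 0.0367). When 1 tumor was left out the call was lost in 5 of the 6 cases (all but vector tumor 3), with a change of -1.22 to -0.97. At the other ATRIP probe (A_23_P501770) the vector tumors had -4.72, -5.49, and -4.28 and the MOAP-1 tumors -4.45, -4.34, and -4.55, with overlap. Its change was 0.39 with a standard error of 0.32 (adjusted p = 0.379).

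The clamp loader RAD17 rose. It was at -4.05, -3.75, and -3.99 in vector and at -2.98, -2.93, and -3.06 in MOAP-1, without overlap, and the rise was 0.94 (1.92-fold, standard error 0.18, adjusted p = 0.00237). RAD9A, a subunit of the clamp, was at -0.85, -1.07, and -0.89 in vector and at -0.48, -0.19, and -0.39 in MOAP-1. Its rise of 0.59 (1.50-fold, standard error 0.12, adjusted p = 0.00329) lay at the fold threshold, and without vector tumor 2 or MOAP-1 tumor 2 it was no longer called. HUS1, the clamp subunit beside it, was at -4.04, -4.45, and -4.06 in vector and at -3.83, -3.75, and -3.77 in MOAP-1. The difference of 0.40 passed the adjusted p (0.022) at 1.32-fold. TOPBP1, which binds the clamp and stimulates ATR, lay between -1.49 and -1.42 in vector and between -1.32 and -1.18 in MOAP-1. These groups did not overlap either, but the difference of 0.19 (interval -0.05 to 0.42) did not pass (adjusted p = 0.216).

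Both effector kinases rose at a probe. CHEK1, the target of ATR, was at -2.21, -2.16, and -2.08 in vector and at -1.60, -1.61, and -1.46 in MOAP-1. Its spread within constructs was small, and the rise of 0.59 (1.50-fold, standard error 0.09, adjusted p = 0.000513) was also at the fold threshold: without vector tumor 1, vector tumor 2, or MOAP-1 tumor 3 it fell below it. CHEK2, the target of ATM, was at -3.21, -3.31, and -2.99 in vector and at -2.44, -2.52, and -2.47 in MOAP-1 at A_23_P109452, a rise of 0.69 (1.62-fold, standard error 0.12, adjusted p = 0.0013). The other CHEK2 probe (A_33_P3386760) lay between -4.47 and -4.38 in vector and between -4.76 and -4.49 in MOAP-1, and its change of -0.18 did not pass (adjusted p = 0.359). CLSPN, which links ATR to CHEK1, was at -3.43, -3.40, and -3.55 in vector and at -3.94, -4.11, and -3.62 in MOAP-1. Its difference of -0.43 (standard error 0.17) did not pass the adjusted p (0.064).

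Most of the calls were lost under normexp models of the background, and the cause was not tested. These models start from the median signals of each spot and its local background, in place of the processed signal. With normexp none of the 14 probes was called, against 1.71% of all probes, and the median of all probes itself moved to -0.53. The 16 spots of extreme background lay on the arrays of K264R tumor 2 and vector tumors 2 and 3. With these spots left out of the model only ATRIP was called, against 8.61% of all probes, and the median of all probes was -0.13. ATM A_23_P35916 then changed by -1.20 and by 0.06, or by -0.68 and 0.19 relative to the median of all probes. RAD9A (0.21 and 0.50), among the called probes that rose, kept a positive sign under both models, as did ATRIP A_24_P371425 its negative sign (-1.06 and -0.92). Quantile normalization left 3 calls (ATM A_23_P35916, ATRIP A_24_P371425, and RAD17), against 15.5% of all probes. The fit without vector tumor 2 left ATM A_23_P35916, CHEK2 A_23_P109452, and RAD17, against 12.3% of all probes.

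**Figure D3:**
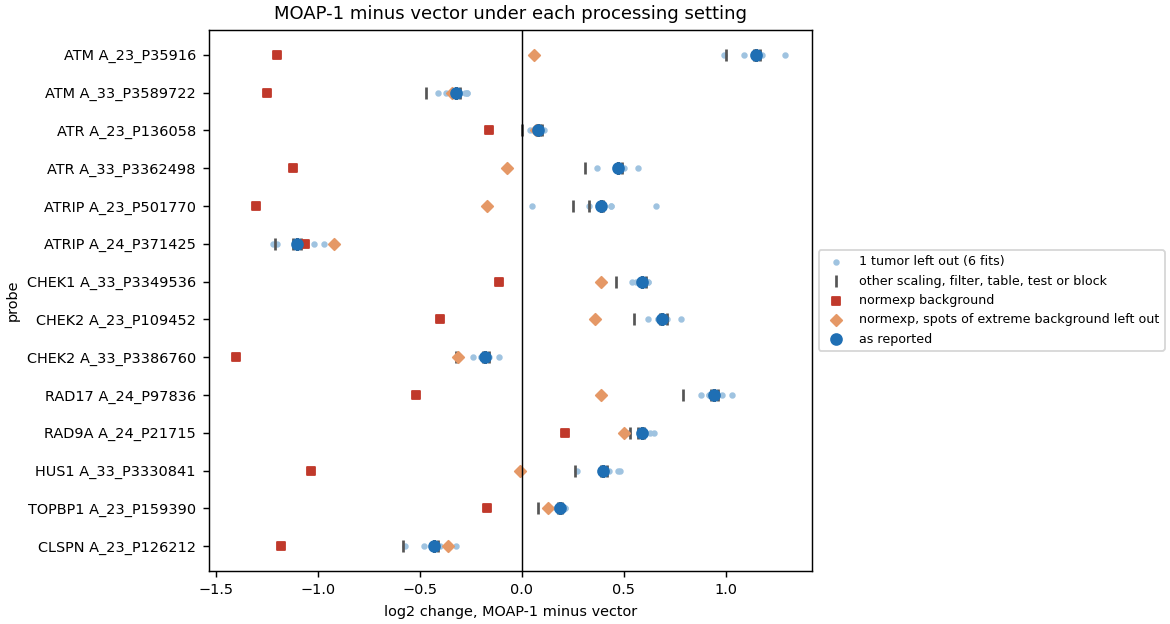
Log2 change of each probe between MOAP-1 and vector (horizontal axis) under each processing setting. Circles are the values as reported, light points leave out 1 tumor, strokes are other scalings, filters, tests, or blocks, and squares and diamonds are the normexp background models. The squares lie to the left of the circles for 13 of the 14 probes, at -1.20 for ATM A_23_P35916.

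The mutant K264R was compared with the same 3 vector tumors. ATM A_23_P35916, CHEK1, CHEK2 A_23_P109452, and RAD17 rose, and no checkpoint probe fell, so that 4 of 14 were called against 19.5% of all probes (9.25% higher and 10.2% lower). ATM was at -4.97, -4.63, and -4.90 in the K264R tumors, above every vector tumor, and rose by 0.80 (standard error 0.18, adjusted p = 0.00505). RAD17 was at -2.90, -2.94, and -3.11 and rose by 0.95 (1.93-fold, standard error 0.18, adjusted p = 0.00176). CHEK1, at -1.53, -1.44, and -1.50, rose by 0.66 (adjusted p = 0.000192), and CHEK2, at -2.66, -2.23, and -2.46, rose by 0.72 (adjusted p = 0.000738). At any fold 6 probes passed, against 34.9% of all probes, among them ATM A_33_P3589722 at -0.35 (adjusted p = 0.0121) and ATR A_33_P3362498 at 0.57 (adjusted p = 0.0119). RAD9A differed by 0.33 (adjusted p = 0.0501) and ATRIP A_24_P371425, at -1.95, -1.39, and -1.30, by -0.73 (standard error 0.36, adjusted p = 0.136). The median change was 0.31, against -0.05 over all probes, and 13 of the 14 did not overlap, against 52.8%. K264R tumors lay on a slide apart from vector. Under normexp none of the 14 probes was called, against 2.99% of all probes. With the extreme spots left out of that model none of the 4 rises was called, and CLSPN was called lower (-0.60, adjusted p = 0.00644), against 25.9% of all probes called.

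In K278R against vector ATM A_23_P35916 was called alone. It was at -4.46, -4.45, and -4.57 in the K278R tumors, a rise of 1.14 (2.20-fold, standard error 0.18, adjusted p = 0.00272), and over all probes 10.9% were called, 7.71% higher and 3.2% lower. The call was lost under both normexp models, where the change was -1.13 (or -0.66 once the shift of all probes is subtracted), against 0.14 without extreme spots. These models called 0.00327 and 4.34% of all probes. The ATM call was also lost by the methods' t-test after adjustment, which called none of all probes. RAD9A, at -0.16, -0.46, and -0.47, differed by 0.57 (1.49-fold, adjusted p = 0.00762) and so stayed just under the fold threshold, and HUS1 (0.47, adjusted p = 0.0166), CHEK1 (0.35, adjusted p = 0.0172), and CHEK2 A_23_P109452 (0.42, adjusted p = 0.0299) also passed at less than 1.5-fold, which made 5 at any fold, against 20.6% of all probes. K278R tumor 2 stood apart from tumors 1 and 3 at several probes. Its array was the dimmest of the 15, with a 75th percentile signal of 496.3 units against 931.5 and 1152 for tumors 1 and 3. The part of array brightness was not tested. At ATRIP A_24_P371425 tumor 2 was at 0.00 against -1.60 and -1.63, at RAD17 at -4.04 against -3.43 and -3.07, and at CLSPN at -3.38 against -4.04 and -3.99. The change of RAD17 was 0.42 with all 3 tumors (adjusted p = 0.119), and that of ATRIP -0.27 (adjusted p = 0.631). Leaving out K278R tumor 2 raised the count of called probes from 1 to 4, against 11.6% of all probes. ATM A_23_P35916 (1.12), RAD17 (0.68), and RAD9A (0.62) were then higher and ATRIP A_24_P371425 lower (-0.80). Leaving out any other tumor gave 1 or 2, against 5.52 to 12.9% of all probes. The groups did not overlap at 5 of the 14, against 37.3% of all probes, and the median change was 0.34, against 0.06.

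No checkpoint probe was called between the RASSF1A and vector tumors, nor was any of the 30585 probes (0%). Without RASSF1A tumor 3, which shared the vector slide, 4.6% of all probes were called and still none of the 14. By limma at an unadjusted threshold of 0.05, 1 of the 14 passed, against 12.1% of all probes, which was the ATR probe A_23_P136058 (change of 0.27, adjusted p = 0.341). The methods' t-test at the unadjusted threshold and 1.5-fold called none of the 14, against 0.611% of all probes. The ATR probe was at -0.82, -0.79, and -0.95 in RASSF1A and did not overlap vector, as was true of 3 of the 14 and of 14.8% of all probes. RAD17 was at -4.32, -4.41, and -4.23 in RASSF1A, below every vector tumor, with a change of -0.39 (interval -0.79 to 0.01, adjusted p = 0.415). ATM A_23_P35916 was at -6.19, -5.44, and -5.62 (change of -0.12, interval -0.52 to 0.28). For 12 of the 14 probes the interval of the change reached no further than 0.79 in either direction, and the exceptions were the 2 ATRIP probes, with intervals of -1.31 to 0.07 and -0.77 to 0.80. On the slide that held all 3 vector tumors and RASSF1A tumor 3, differences lay between -0.30 (RAD17) and 0.31 (ATRIP A_24_P371425).

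**Figure D4:**
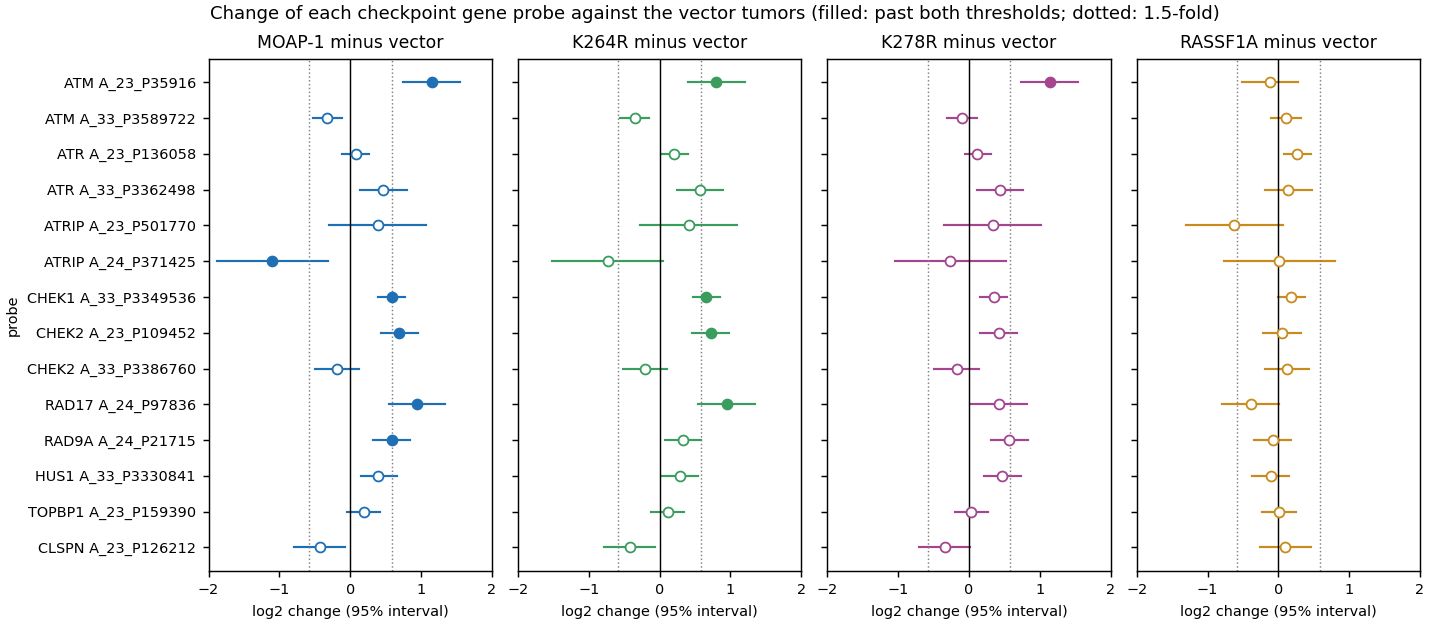
Log2 change of each of the 14 probes against the vector tumors (horizontal axis) for each construct, with 95% intervals from the fit of all 15 arrays. Filled points passed both thresholds and dotted lines mark 1.5-fold. MOAP-1 has 6 filled points, K264R 4, K278R 1, and RASSF1A none; all 4 panels use the same 3 vector tumors.

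The constructs were also compared with MOAP-1 directly, with its 3 tumors shared by these comparisons and by the one with vector. Against K264R no checkpoint probe was called by limma (0.00327% of all probes were). None was called by the methods' t-test at an unadjusted threshold of 0.05 and 1.5-fold either, against 1.03% of all probes. By limma none passed an unadjusted threshold of 0.05, against 10.9% of all probes, and the groups did not overlap at 4 of the 14, against 19.4%. The intervals were narrow for CHEK1 (-0.26 to 0.12) and TOPBP1 (-0.17 to 0.31) and wide for ATRIP A_24_P371425 (-1.15 to 0.42). ATM A_23_P35916 was higher in all 3 MOAP-1 tumors than in the K264R tumors, by 0.35 (interval -0.05 to 0.75, adjusted p = 0.501). Against K278R none of the 14 was called by limma either, as none of all probes was (0%). The methods' t-test at an unadjusted threshold of 0.05 and 1.5-fold called none of the 14, against 0.471% of all probes. By limma 5 passed an unadjusted threshold of 0.05 at any fold, against 9.22% of all probes: RAD17 at 0.52 (adjusted p = 0.474), CHEK1 at 0.24, CHEK2 A_23_P109452 at 0.27, ATM A_33_P3589722 at -0.21, and ATRIP A_24_P371425 at -0.83. The groups did not overlap at 5 of the 14, against 13% of all probes. On the slide shared by the K278R tumors and MOAP-1 tumor 2 the differences were 0.58 for RAD17 and -0.83 for ATRIP A_24_P371425, and between -0.31 and 0.25 for the others.

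MOAP-1 and RASSF1A tumors, in contrast, differed at 6 probes, 5 higher and 1 lower in MOAP-1, against 21.2% of all probes (13% higher and 8.14% lower). RAD17 was higher in MOAP-1 by 1.33 (2.52-fold, standard error 0.18, adjusted p = 0.000154), ATM A_23_P35916 by 1.27 (adjusted p = 0.000216), RAD9A by 0.67 (adjusted p = 0.000918), and CHEK2 A_23_P109452 by 0.64 (adjusted p = 0.00135). The ATRIP probes were called in opposite directions, A_23_P501770 higher by 1.01 (adjusted p = 0.0244) and A_24_P371425 lower by 1.11 on the log2 scale (-1.11, adjusted p = 0.0291). Each lost its call in 4 of the 6 fits without 1 tumor, A_23_P501770 without MOAP-1 tumor 1 or 2 or RASSF1A tumor 1 or 2 (0.64 to 1.35 over the 6) and A_24_P371425 without MOAP-1 tumor 1 or 2 or RASSF1A tumor 2 or 3 (-1.34 to -0.96). Under normexp none of the 6 calls was left, against 7.39% of all probes called. Without extreme spots RAD17 (0.66) was called higher and ATRIP A_24_P371425 lower (adjusted p = 0.0249), against 12.5% of all probes. CHEK1 differed by 0.41 (adjusted p = 0.00297), HUS1 by 0.52 (adjusted p = 0.00442), and CLSPN by -0.53 (adjusted p = 0.0226), all under 1.5-fold, and 10 probes passed at any fold, against 37.3% of all probes. None of the 14 probes overlapped between these groups, against 51.2% of all probes that did not overlap. RASSF1A tumors 1 and 2 were scanned on another day than all the rest. With scan day as a block 2 probes were called, ATM A_23_P35916 (1.13) and RAD17 (1.25), against 10.7% of all probes. Without RASSF1A tumor 2 there were 3, against 19.1% of all probes.

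Across the 5 constructs together, 9 of the 14 probes passed the moderated F-test at an adjusted p of 0.05, against 43.4% of all probes. They were both ATM probes, ATR A_33_P3362498, CHEK1, CHEK2 A_23_P109452, RAD17 (adjusted p = 0.00025), RAD9A, HUS1, and CLSPN, whereas the remaining ATR and CHEK2 probes, both ATRIP probes, and TOPBP1 (adjusted p = 0.477) did not pass. Construct means of RAD17 ran from -4.32 in RASSF1A through -3.93 in vector, -3.51 in K278R, and -2.99 in MOAP-1 to -2.98 in K264R. The last pair differed by less than the spread between tumors, with an interval of -0.40 to 0.39. Means of ATM A_23_P35916 ran from -5.75 in RASSF1A and -5.63 in vector to -4.83 in K264R, -4.49 in K278R, and -4.48 in MOAP-1. The 9 tumors with a MOAP-1 construct lay between -4.97 and -4.37 and the other 6 between -6.19 and -5.35.

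Other genes of the pathway were taken from 5 lists, chosen with earlier results of these data known, and are given for MOAP-1 against vector, where 9.92% of all probes were called higher and 6.69% lower, with a median change of 0.02. Of 7 probes for the partners of the clamp and its loader, 2 rose and none fell, with a median of 0.40. RFC2 (0.78, adjusted p = 0.0381) and RFC3 (1.59, adjusted p = 0.000383) encode small subunits that RAD17 shares with the loader of the replication clamp, and the other RFC3 probe differed by 0.40 (adjusted p = 0.0751). Of 8 probes for ATR activation and fork protection, RPA2 rose at 1 of 2 probes (0.69, adjusted p = 0.00129), RPA3 fell (-0.61, adjusted p = 0.00536), and the median was -0.13. Both genes encode subunits of RPA, which coats single-stranded DNA. Of 11 probes for break sensors and mediators around ATM only RNF8, a ubiquitin ligase recruited to breaks, rose (1.32, adjusted p = 0.000965), with a median of 0.31 and a range of -0.35 to 1.32. Of 11 probes for the cell cycle targets of the checkpoint only CDK2, a kinase of S phase entry, rose (1.02, adjusted p = 0.000345), and the median was 0.12.

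Cell cycle genes, listed for comparison, rose at 8 of 17 probes and fell at none, with a median of 0.53, against 9.92% of all probes called higher and a median of 0.02. RRM2, a subunit of ribonucleotide reductase, rose by 1.91 (adjusted p = 0.000159) and TOP2A, a topoisomerase of dividing cells, by 1.84 (adjusted p = 0.000413). PCNA, the replication clamp, rose at both probes, by 0.61 and 1.01 (adjusted p = 0.00215 and 0.00049). AURKA (0.70, adjusted p = 0.00236), TPX2 (0.78, adjusted p = 0.00369), and CCNA2 (0.72, adjusted p = 0.00134) rose as well. MKI67 rose at 1 of its 3 probes, by 1.46 (adjusted p = 0.00058). The summed level of the list lay between 4.87 and 5.11 in the vector tumors, 5.12 and 5.24 in K278R, 5.17 and 5.25 in RASSF1A, 5.34 and 5.40 in MOAP-1, and 5.46 and 5.54 in K264R. It was thus above every vector tumor in all 4 other constructs, but it sums unlogged levels, so the brightest genes weigh most. In RASSF1A against vector none of the 17 probes of the list was called, as none of all probes was, and their median change was 0.11. The part of the cell cycle genes in the changes of the checkpoint genes was not tested. Under quantile normalization the list of ATR activation had a median of -0.05 and the called counts of the 5 lists differed only by RPA3, which was no longer called. Under normexp no probe of the first 4 lists was called and 4 of the cell cycle probes were, against 1.71% of all probes. RFC3 A_33_P3214446 (-0.19), CDK2 (-0.31), and MKI67 A_24_P346855 (-0.49) turned negative, or 0.34, 0.22, and 0.04 relative to the median of all probes.

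The probes most like the brightest probe of 4 genes over the 15 tumors were found by Pearson's r, as a description whose points share construct and slide. CHEK1 was most like HNRNPA2B1 (r = 0.964), TBP (0.958), and PRDX1 (0.957). CHEK2 A_23_P109452 was most like UNC13A (0.984), MRPL24 (0.982), and TOMM22 (0.973). ATR A_23_P136058 was most like NSMCE4A (0.901), KIF18A (0.896), and AMDHD1 (0.895), and ATM A_33_P3589722 was most like NPFF (0.952), WDR13 (0.950), and MAGEC1 (0.946).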

How the data were processed

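RNA of 15 xenograft tumors, 3 for each of 5 constructs taken from the labels, was measured on single-color Agilent arrays, 1 tumor per array. Scanner files were deposited from Feature Extraction (10.5.1.1 per the file headers, 9.1 in the submitters' processing notes), and their processed signal is an intensity that this software had already corrected for background. The log2 values that the authors deposited from GeneSpring GX 11.5.1 served as an alternative, and of their columns 8 followed the array of the label and 7 followed another array of the same construct.

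The intensities of the spots were log2-transformed and shifted to the 75th percentile of each array (496.3 to 1402 units). Spots of a probe were then averaged on the log2 scale, without outlier spots. A probe was kept if every tumor of some construct had it well above background. Genes were named through RefSeq accessions (GRCh38.p14 table). A single linear model over the 15 arrays was fitted in limma 3.58.1 (R 4.3.3, lmFit and eBayes, 10 residual degrees of freedom), with Benjamini-Hochberg adjustment over 30585 probes, intervals of 95%, and tumors as replicates. p-values measure the spread between these tumors, and whether they came from separate transfections is not given in the sources used here. The fit was tested on simulated data. Members and gene lists were chosen with earlier results of these data known. The named genes were all members, the construct genes, listed genes called between MOAP-1 and vector, and the closest probes by correlation. The number of arrays limits the precision.

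The alternatives comprised quantile normalization, a normexp model of the background (offset 50) with and without 16 spots of extreme background, other filters, the authors' table, the methods' t-test, a fit of the compared groups alone, replicate, slide, or scan day as a block, and each tumor left out in turn.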

Additional observations from a re-analysis of the deposited data

How the results depend on the processing

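The counts of called checkpoint probes depended on the background model and, for some comparisons, on single tumors. For MOAP-1 against vector 9 of 12 alternatives kept the count of 6 within 1.5 times. The exceptions were 3 with quantile normalization (15.5% of all probes called), 0 with normexp (1.71%), and 1 with normexp without its extreme spots (8.61%). Leaving out 1 tumor gave 3 to 6, against 12.3 to 18.6% of all probes. For K264R against vector none of the 4 calls was left under these normexp models. The count was 0 and 1 (CLSPN, lower), against 2.99 and 25.9% of all probes, and it was 4 to 5 with a tumor left out (16.0 to 22.1%). For K278R against vector the 1 call became 0 under both normexp models (0.00327 and 4.34% of all probes called). It also became 0 with the methods' t-test once adjusted, which called none of all probes. The count was 1 to 4 with a tumor left out, against 5.52 to 12.9% of all probes. For MOAP-1 against RASSF1A the 6 calls became 0 and 2 under the normexp models (7.39 and 12.5% of all probes called). They became 2 with scan day as a block (10.7%), and 3 to 7 with a tumor left out (18.7 to 23.5%). The counts of 0 in the other 3 comparisons did not move under any alternative, where at most 4.6% of all probes were called. The median of all probes moved under normexp to -0.53 for MOAP-1, -0.31 for K264R, and -0.46 for K278R against vector.

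Signs reversed only under the normexp models, 18 times in 1792 recomputed changes. For MOAP-1 against vector normexp gave -1.20 for ATM A_23_P35916, -1.12 for ATR A_33_P3362498, -0.11 for CHEK1, -0.40 for CHEK2 A_23_P109452, -0.52 for RAD17, and -1.03 for HUS1, and without extreme spots -0.07 for ATR A_33_P3362498 and -0.01 for HUS1. For K264R against vector it gave -0.66 for ATM A_23_P35916, -0.38 for ATR A_33_P3362498, -0.02 for CHEK2 A_23_P109452, and -0.05 for RAD17, and without extreme spots -0.35 for the ATM and -0.15 for the ATR probe. For K278R against vector it gave -1.13 for ATM A_23_P35916, -0.30 for CHEK1, -0.56 for CHEK2 A_23_P109452, and -0.98 for HUS1. Relative to the shifted median of all probes 8 of these 18 values stayed positive and RAD17 in MOAP-1 was at 0.00, and those 8 were CHEK1 (0.42) and CHEK2 (0.13) in MOAP-1 under normexp and ATR (0.06) and HUS1 (0.11) without extreme spots, CHEK2 (0.29) and RAD17 (0.26) in K264R under normexp and ATR (0.11) without extreme spots, and CHEK1 (0.16) in K278R. The cause was not tested. A further 103 changes of sign concerned values not past the adjusted p under either setting.

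The replicate numbers were not used as pairs in the reported fit. Tumors of the same number correlated in their deviations from the construct means at -0.25 to 0.37 over 30 pairs, 15 of them over 0.1. Tumors of other numbers did so at -0.47 to 0.45 over 60 pairs, 19 of them over 0.1. Of the 15 tumors 4 correlated best with their own number. The replicate block left the counts at 6 for MOAP-1, 4 for K264R, 1 for K278R, and 0 for RASSF1A against vector, and 0, 0, and 6 for MOAP-1 against K264R, K278R, and RASSF1A, and changed none of 98 probe calls. Over all probes that block called 17.2, 19.8, 11.6, and 0% against vector in the same order, and 0.00327, 0, and 21.5% in the others. Slide could be fitted as a fixed block in 2 comparisons alone.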
